A study of Bos taurus with 46 samples.

Results

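The 9 genes described here encode proteins with which white blood cells hold on to the vessel wall: the selectin ligand SELPLG, the integrin subunits ITGAL, ITGAM, ITGAX, ITGB2, ITGA4, ITGB1 and ITGB7, and the integrin ligand ICAM1. They were taken by symbol from a table of 30675 genes, in which all 9 were present, and all 9 passed the filter on low counts in every comparison. The counts come from white blood cells of 23 pregnant Angus crossbred heifers younger than 2 years, each bled from the tail on gestation D55 and again on D105, which gave 46 libraries. The AI group (n = 8) carried fetuses conceived by artificial insemination. The others received 2 in vitro produced (IVP) embryos each, sired by a Brahman bull, and are called IVP-Normal (n = 6; ARTnormal in the labels) or IVP-LOS (n = 9; ARTLOS in the labels). LOS, large offspring syndrome, was assigned by the weight of the fetus collected on D105 against the AI fetuses. All heifers had been synchronised with a progesterone insert and prostaglandin, some IVP heifers carried 2 fetuses, and the same heifers made up each group on both days. On D55 all libraries bear the set name New in the labels. On D105 the AI and IVP-LOS libraries bear the set name BACKUP and the IVP-Normal libraries New, so that day and, in AI and IVP-LOS, library set cannot be told apart. Each heifer's D105 blood was drawn weeks after its D55 blood, so within a heifer the time of year cannot be told from the day either.

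A leukocyte leaves the blood in steps. Selectins on the vessel wall and on platelets catch SELPLG (PSGL-1), which lets the cell roll. Chemokine signals then switch integrins to a gripping form. Each integrin is a pair of an alpha and a beta subunit: ITGAL with ITGB2 makes LFA-1, the main integrin of lymphocytes and a receptor of ICAM1. ITGAM with ITGB2 makes Mac-1, and ITGAX with ITGB2 makes CD11c/CD18, both best known from myeloid cells. ITGA4 pairs with ITGB1 to make VLA-4, the receptor of VCAM1, or with ITGB7 to make the receptor of the gut addressin MADCAM1.

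Between 18692653 and 24502012 reads per library fell on genes. Heifers 604 and 664 are the dams of the largest IVP-LOS fetuses. Their D105 libraries had 38.0% and 36.1% of their reads on no gene, against 23.9 to 30.5% in the other 21 heifers on that day. Values of the IVP-LOS group that moved most with these heifers, or with heifer 637 of the same group, are also given without them. Marker lists of cell types were looked up in the libraries. All 8 T cell, 6 B cell and 8 monocyte markers, and the 8 of 9 neutrophil markers that were in the table, had reads in each of the 6 groups. So did all 6 platelet and 5 endothelial markers, so that having reads does not tell white blood cells from other cells. The 9 genes are given below as TMM-scaled CPM, a gene's count as a share of all counts of its library. Levels are compared between libraries and not between genes, since no transcript lengths were used.

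SELPLG was higher on D105 in AI heifers, where it passed the test. In AI heifers its lowest, median and highest CPM were 147, 210 and 252 on D55 and 198, 401 and 473 on D105. In 7 of the 8 AI heifers SELPLG was higher on D105, and only heifer 647 was not (235 and 230 CPM). The mean went from 199.5 ± 39.2 (SD, n = 8) to 360.1 ± 103.7 CPM, a log2 fold change of 0.86 (SE 0.18, 95% interval 0.48 to 1.23, edgeR quasi-likelihood FDR = 0.0042). SELPLG was the 1 member called out of 9 in this comparison, in which 9.95% of all 15248 genes tested were called and 7.21% were called higher. With heifer as a block, which compares each animal with itself, SELPLG stayed called (0.82, FDR = 0.0045) and ITGB7 was called as well (0.28, FDR = 0.026), 2 of 9 against 17.1% of all genes. With all 46 libraries in 1 fit, which share 1 estimate of the spread, SELPLG kept its size (0.85) but was not called (edgeR FDR = 0.060).

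In IVP-Normal heifers SELPLG ran from 121.98 through a median of 185 to 226 CPM on D55, and from 154 through 260 to 471 CPM on D105. All 6 heifers were higher on D105, by 0.177 to 1.304 on the log2 scale, although the groups overlapped. The log2 fold change of 0.68 (95% interval 0.17 to 1.202) did not pass the threshold without the block (edgeR FDR = 0.21) and passed it with the block (0.62, FDR = 0.031). No member was called without the block, where 2.45% of all genes were, and 2 of 9 were called with it, where 5.5% were. All libraries of this comparison belong to the set New.

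In IVP-LOS heifers SELPLG ran from 154 through 216 to 321 CPM on D55 and from 66.1 through 206 to 881 CPM on D105. Only 4 of 9 heifers were higher on D105. Heifer 637 went from 321 to 881 CPM, while heifer 664 went from 154 to 66.1 CPM and heifer 604 from 225 to 130 CPM. The log2 fold change was 0.39 (95% interval -0.32 to 1.11, edgeR FDR = 0.70), and it was 0.06 without heifer 637 and 0.58 (FDR = 0.66) without 604 and 664. With the block it was 0.08 (FDR = 0.88). No member was called in this comparison, in which 0.251% of 15163 genes were called, nor with the block (1.07%). The change in IVP-LOS differed from that in AI by -0.47 (95% interval -1.26 to 0.32, FDR = 0.95), so the responses of the groups were not shown to differ. Without heifer 637 this difference was -0.81 (95% interval -1.45 to -0.17, edgeR FDR = 0.41), and without 604 and 664 it was -0.27. With the block and all heifers it was -0.75 (unadjusted p = 0.019, edgeR FDR = 0.46).

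**Figure D1:**
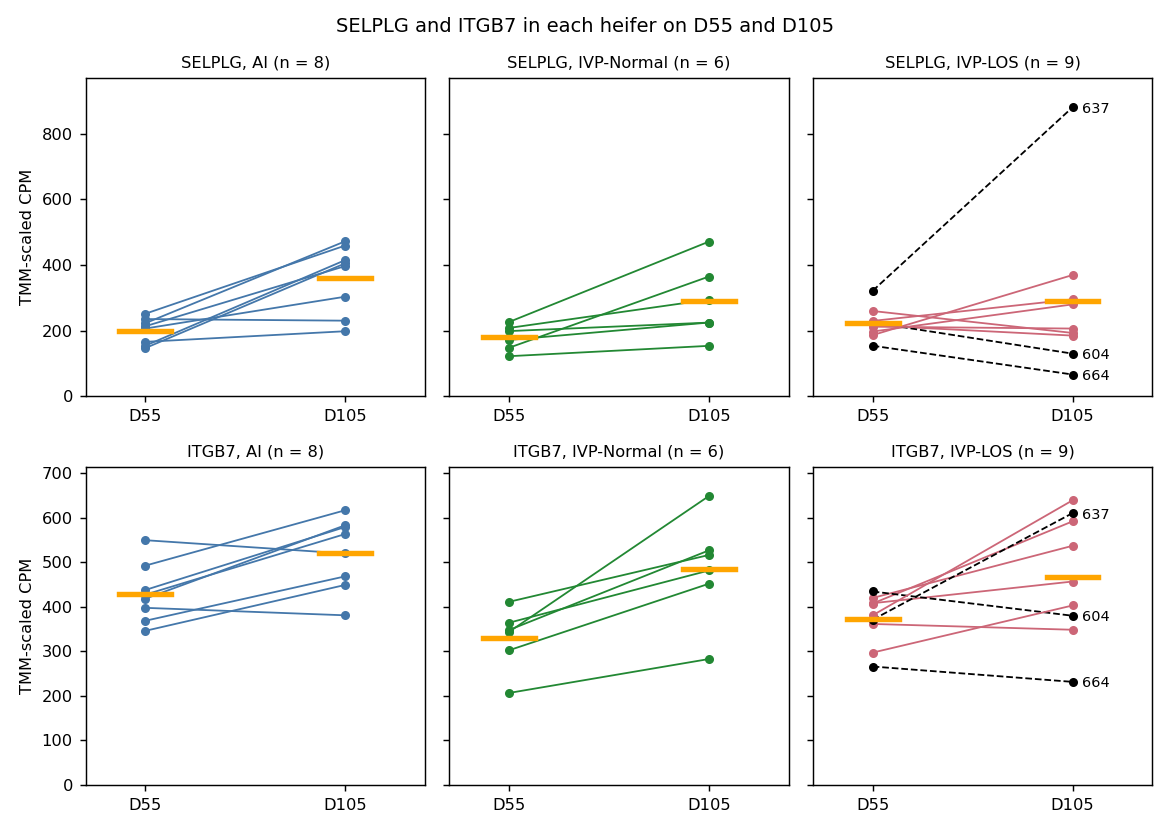
SELPLG (top) and ITGB7 (bottom) in TMM-scaled CPM on D55 and D105, 1 line per heifer in each group, with orange bars at the group means and dashed black lines for heifers 604, 637 and 664. SELPLG was higher on D105 in 7 of 8 AI and 6 of 6 IVP-Normal heifers but in 4 of 9 IVP-LOS heifers, where D105 ran from 66.1 to 881 CPM.

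Markers of several cell types also changed between the days. The neutrophil markers' summed level had medians of 1194 CPM on D55 and 2533 CPM on D105 in AI, 921 and 1822 CPM in IVP-Normal, and 1168 and 1179 CPM in IVP-LOS. Of the 7 neutrophil markers tested, 6 were called higher in AI and 4 in IVP-Normal. In IVP-LOS edgeR called 0 of the 7, where 4 had an unadjusted p under 0.05. The median fitted log2 change of the 7 markers was 1.57 in AI, 1.46 in IVP-Normal and 1.60 in IVP-LOS. These fits are of group means, and the part of heifer 637 in the IVP-LOS value was not tested. On D105 the neutrophil markers' summed level in IVP-LOS ran from 367 to 12291.5 CPM, the latter in heifer 637, which had 1740 CPM on D55. Heifer 604 went from 727 to 367 CPM and heifer 664 from 553 to 425 CPM. Of 8 monocyte markers, CD68 (1.14) and CD14 (1.01) were called higher in AI, and 4 were with the block. Their summed level had medians of 551 and 785 CPM in AI, 426 and 455 CPM in IVP-Normal, and 548 and 490 CPM in IVP-LOS. Of 3 eosinophil markers tested, SIGLEC8 was called higher in AI (1.82) and in IVP-Normal (2.09). IL5RA (0.58 and 0.63) and CCR3 (0.27 and 0.08) were not called in these groups. Of 5 natural killer cell markers, GZMB was called higher in IVP-Normal (2.11). The rest lay below 0 there: NCR1 (-0.26), KLRK1 (-0.13), PRF1 (-0.21) and NKG7 (-0.23), none of them called. In AI with the block GZMB was called higher (1.85, edgeR FDR = 0.013) and NKG7 lower (-0.36, edgeR FDR = 0.0098). Of 8 T cell markers, CD4 was called higher in AI with the block (0.38, edgeR FDR = 0.015) and not without it (0.36, FDR = 0.15), and no other was called in any group with or without the block. Of 6 B cell markers, 2 were called lower in AI with the block and 0 without it. The part of these cell markers in the SELPLG result was not tested, and in whole blood cells fewer cells of a type and less RNA per cell cannot be told apart.

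ITGB7, the beta subunit of the gut-homing integrin, had fitted changes above 0 in all 3 groups, as SELPLG did. In AI it ran from 346 through a median of 423 to 550 CPM on D55 and from 381 through 542 to 617 CPM on D105, higher in 6 of 8 heifers. In IVP-Normal it ran from 207 through 346 to 411 CPM and then from 283 through 499 to 649 CPM, higher in 6 of 6. In IVP-LOS it ran from 266 through 381 to 434 CPM and then from 231 through 457 to 639 CPM, higher in 6 of 9. The ranges of the days overlapped in every group.

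The log2 fold changes of ITGB7 were 0.28 in AI (95% interval 0.06 to 0.50, edgeR FDR = 0.11), 0.55 in IVP-Normal (0.15 to 0.95, FDR = 0.18) and 0.34 in IVP-LOS (-0.01 to 0.68, FDR = 0.41). With heifer as a block ITGB7 was called in AI, as given above, and in IVP-Normal (0.54, FDR = 0.0060), while IVP-LOS stayed above the threshold (0.29, FDR = 0.22). Without heifers 604 and 664 the blocked IVP-LOS value was 0.42 (FDR = 0.078). The 3 groups' changes differed from each other by -0.23 to 0.28 with no FDR below the threshold.

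ITGAX, the CD11c subunit, had no called change. It was higher on D105 in 7 of 8 AI and 4 of 6 IVP-Normal heifers and in 1 of 9 IVP-LOS heifers, heifer 637 (375 and 475 CPM). The fitted changes were 0.18 in AI, 0.11 in IVP-Normal and -0.21 in IVP-LOS. The difference of IVP-LOS from AI was -0.40 (95% interval -1.26 to 0.47, edgeR FDR = 0.95), which did not pass the threshold. That fit treated the 2 libraries of a heifer as independent. Taken heifer by heifer, the mean log2 change was 0.19 (SD 0.30, n = 8) in AI and -0.30 (SD 0.32, n = 9) in IVP-LOS. With the block 0 of 9 members were called in this comparison, beside 0% of all 16487 genes. ITGAX, ITGAM and ITGAD are related genes, and reads that match more than 1 of them may have been lost or split in counting.

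ITGAM, ITGAL and ITGB2 had fitted changes below 0 in all 3 groups, and none was called. ITGAM, the Mac-1 subunit, was lower on D105 in 6 of 8 AI, 5 of 6 IVP-Normal and 7 of 9 IVP-LOS heifers. Its mean in IVP-Normal was 158 ± 27.0 CPM (SD, n = 6) on D55 and 114.7 ± 27.8 CPM on D105, a log2 fold change of -0.46 (95% interval -0.83 to -0.10, edgeR FDR = 0.23). ITGAL, the LFA-1 subunit, was lower in 6 of 8, 4 of 6 and 7 of 9 heifers, with fitted changes of -0.09, -0.27 and -0.31. The IVP-LOS value of ITGAL was -0.16 without heifers 604 (-1.05) and 664 (-1.34). ITGB2, the beta subunit that all 3 of these partners share, had the narrowest changes, from -0.09 in IVP-Normal to -0.04 in AI, and every 95% interval of it lay within -0.32 to 0.14.

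ITGA4 and ITGB1, the VLA-4 subunits, went both ways among heifers. ITGA4 was higher on D105 in 4 of 8 AI, 3 of 6 IVP-Normal and 5 of 9 IVP-LOS heifers, and single heifers spread from -1.71 (604) to 1.03 (648) on the log2 scale. ITGB1 was higher in 4 of 8, 2 of 6 and 3 of 9 heifers, with fitted changes of -0.08, -0.16 and -0.25. The last of these was -0.13 without heifers 604 (-0.99) and 664 (-0.70). In the reference gene table, which is of another assembly than the counts, ITGA4 overlaps CERKL, so reads in the overlap may have been left out. ICAM1, the ligand, had few reads (2.59 to 16.3 CPM over all libraries), and its fitted changes of 0.00, -0.17 and -0.25 had 95% intervals from -0.91 to 0.56.

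**Figure D2:**
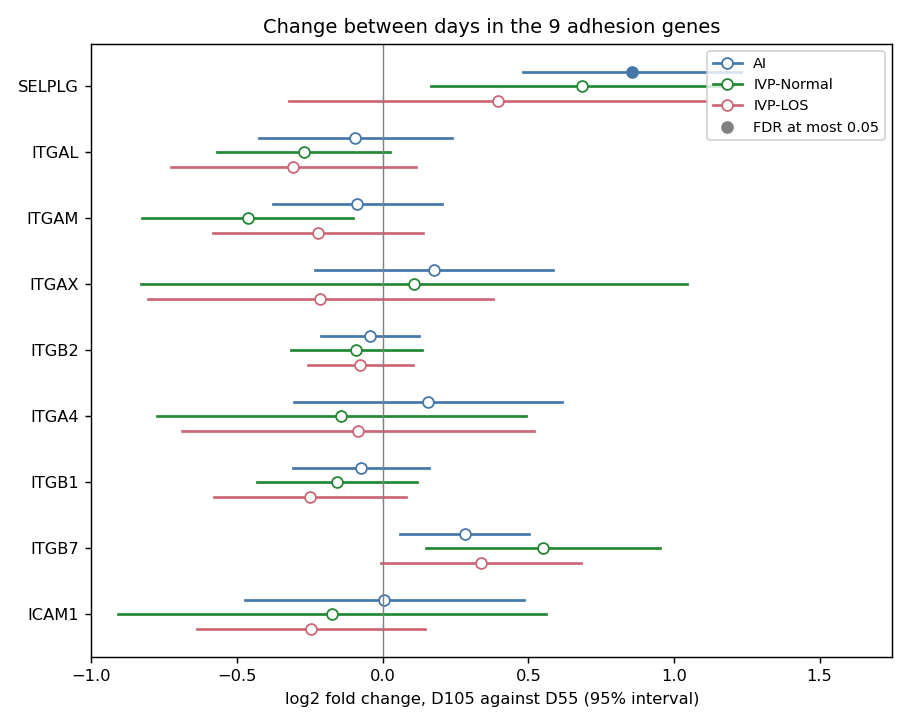
Log2 fold change of D105 against D55 (horizontal axis) with its 95% interval for each of the 9 genes by group; the filled point passed an FDR of 0.05 without the block. SELPLG and ITGB7 lie above 0 in all 3 groups, and only SELPLG in AI (0.86) is filled.

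Over the 9 members the median log2 change was 0.00 in AI, -0.14 in IVP-Normal and -0.21 in IVP-LOS, beside -0.02, -0.03 and 0.01 over all genes tested. Ordered by group mean, SELPLG and ITGB7 had all D105 groups above all D55 groups. For SELPLG in IVP-LOS most of the gap came from heifer 637: with it the means were 222 CPM on D55 and 289 CPM on D105, and without it 209.9 and 216 CPM. Of the 45 pairs of neighbours in the order of the 6 group means, taken over the 9 genes, 43 differed by less than the smaller SD of the pair. The exceptions were SELPLG in IVP-Normal on D105 against IVP-LOS on D55, and ITGB7 in AI against IVP-LOS, both on D55.

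The groups were then compared within a day, the question being whether leukocytes of dams with overgrown fetuses could be told from the others. Among the 54 tests of the 9 genes in 6 comparisons, edgeR's quasi-likelihood test called 0, as did edgeR's likelihood ratio test and DESeq2. In these comparisons the quasi-likelihood test called 0% of all genes, the likelihood ratio test 1 to 11 genes (at most 0.072%) and DESeq2 1 to 43 (at most 0.281%). An unadjusted p under 0.05 was reached in 5 of the 54 tests, and in 6 with either other tool, while over all genes tested 3.24 to 9.92% reached it with the quasi-likelihood test.

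On D55, where all libraries share a set, the smallest unadjusted p belonged to ITGB7 in IVP-Normal against AI. ITGB7 averaged 329 ± 69.7 CPM (SD, n = 6) in IVP-Normal and 430 ± 65.7 CPM (n = 8) in AI, a log2 difference of -0.39 (95% interval -0.68 to -0.10, unadjusted p = 0.011, edgeR FDR = 0.49). ITGAL was 0.29 higher in IVP-LOS than in IVP-Normal (0.01 to 0.57, unadjusted p = 0.042, edgeR FDR = 0.84). Between IVP-LOS and AI on D55 the 9 differences ran from -0.20 for ITGB7 to 0.25 for ITGAX, and all intervals lay between -0.47 and 0.73.

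On D105 ITGAL averaged 468 ± 90.0 CPM (SD, n = 6) in IVP-Normal against 629.6 ± 121.9 CPM (n = 8) in AI. The log2 difference was -0.42 (95% interval -0.72 to -0.12, unadjusted p = 0.0087, edgeR FDR = 0.51). ITGA4 (-0.51, unadjusted p = 0.044, edgeR FDR = 0.51) and ITGB1 (-0.29, unadjusted p = 0.028, edgeR FDR = 0.51) also lay lower. These D105 differences cannot be told apart from the library set. On D55, within 1 set, the same heifers gave -0.27 for ITGAL, -0.24 for ITGA4 and -0.23 for ITGB1. All 3 of these 95% intervals included 0, at -0.61 to 0.08, -0.81 to 0.34 and -0.48 to 0.02. Between IVP-Normal and AI on D105 0 cell markers were called. An unadjusted edgeR p under 0.05 was reached by 5 of 8 T cell, 3 of 8 monocyte and 3 of 6 B cell markers. It was reached by 0 of 7 neutrophil markers and by 9.57% of all genes. The median log2 differences of these 4 lists were -0.31, -0.74, 0.43 and -0.32. Their part in the adhesion genes was not tested.

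Between IVP-LOS and AI on D105, both from the set BACKUP, all 9 genes were lower in IVP-LOS, by 0.06 (ITGAM) to 0.31 (SELPLG) on the log2 scale, and every interval included 0. Without heifers 604 and 664 ITGA4, ITGAM, ITGAX and ITGB1 turned to between 0.01 and 0.04, and SELPLG was -0.06. Without heifer 637 the SELPLG difference was -0.72 (95% interval -1.31 to -0.14, unadjusted p = 0.018, edgeR FDR = 0.21), which did not pass the threshold. With all heifers the SELPLG interval, -1.09 to 0.46, left room for a fall of more than 2-fold, whereas that of ITGB2 was -0.27 to 0.10.

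**Figure D3:**
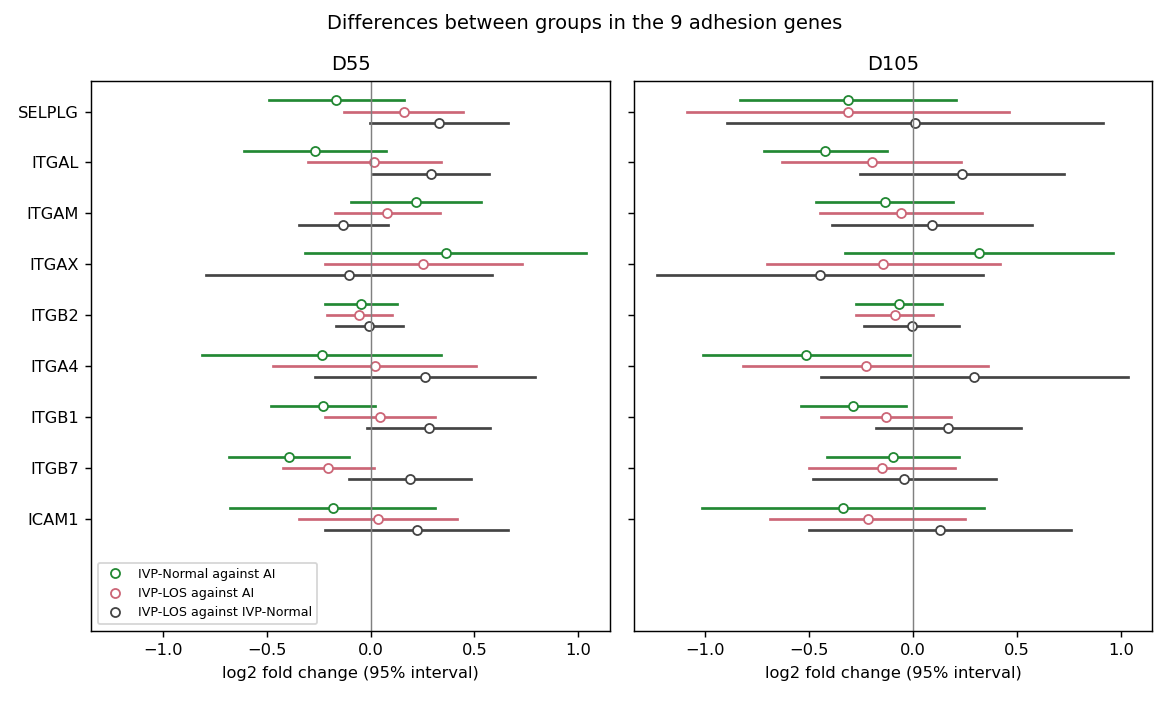
Log2 differences between groups (horizontal axes) with 95% intervals for the 9 genes on D55 (left) and D105 (right), for IVP-Normal against AI, IVP-LOS against AI and IVP-LOS against IVP-Normal. No point passed an FDR of 0.05, and the intervals of ITGB2 are the narrowest, between -0.28 and 0.22.

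On D105 the 2 heifers with the largest fetuses had low levels of 5 of the 9 genes. Both lay below all of the other 21 heifers for SELPLG, ITGAL, ITGAX, ITGA4 and ITGB1, and above them for 0 of 9. Over all 16487 genes with enough reads, 7.03% had both heifers below and 6.9% both above the other 21 on that day. This pair is named by the study and not by the labels, so its values are described without a test. The study took the pair for its fetuses and also because clustering of these same transcriptomes set it apart. Low or high levels in the pair are therefore not independent of how it was chosen. SELPLG, ITGAL, ITGA4 and ITGB1 also varied together over the heifers, as given below, so they are not separate observations.

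SELPLG stood at 130 CPM in 604 and 66.1 CPM in 664, while the other 21 ran from 154 through a median of 295 to 881 CPM. ITGA4 stood at 71.2 and 66.8 CPM, against 83.3, 205 and 344 CPM. ITGAL stood at 333 and 217 CPM, against 340, 582 and 842 CPM. The level of 604 thus lay close under the lowest other heifer for ITGAL, and 664 far under it.

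ITGB1 stood at 213 and 237 CPM, against 245, 379 and 507 CPM in the other 21. ITGAX stood at 139 and 160 CPM, against 162, 299 and 757 CPM. For both genes the higher of the 2 heifers was 664, and it lay just under the lowest of the others, 633 for ITGB1 and 669 for ITGAX.

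The common beta subunit did not share this position: ITGB2 stood at 828.8 and 909 CPM, inside the 711 to 1124 CPM of the others. ITGAM (101.03 and 98.2 CPM) and ICAM1 (5.47 and 7.99 CPM) were also inside. ITGB7 was lowest of all 23 heifers in 664 (231 CPM) and above 2 of the other 21 heifers in 604 (380 CPM). On D55 the same heifers lay outside the other 21 together for 0 of 9 genes, beside 0.855% of all genes.

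**Figure D4:**
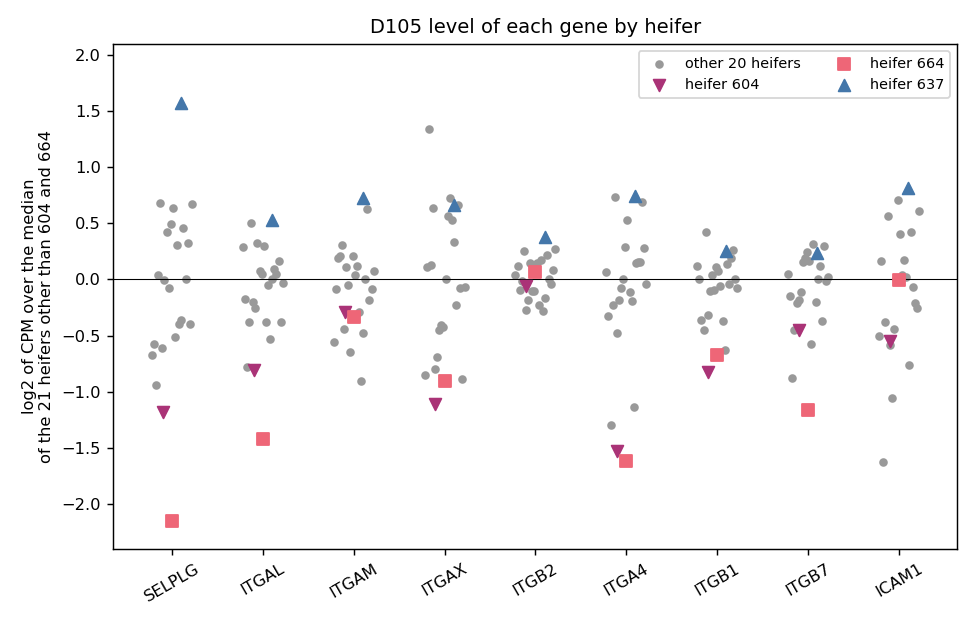
D105 level of each gene in each of the 23 heifers, as the log2 of its CPM over the median of the 21 heifers other than 604 and 664; 604 and 664 (inverted triangles and squares) and 637 (triangles) are marked. Both 604 and 664 lie under every other heifer for SELPLG, ITGAL, ITGAX, ITGA4 and ITGB1, while ITGB2 stays near 0.

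Other values of the same D105 libraries moved with these levels. The neutrophil marker sum was 367 CPM in 604 and 425 CPM in 664, below the 749 to 12291.5 CPM of the other 21, and the monocyte sum was 144 and 117.9 CPM, below their 244 to 2163 CPM. The B cell sum was 3851 and 5002 CPM, against 1262 to 4332 CPM. The T cell sum was 1221 CPM in 604, inside the other heifers' 776 to 2040 CPM, and 746 CPM in 664, below it. Heifer 604 also had a platelet sum of 5788 CPM (other 21: 253 to 1512 CPM). The part of these cell markers, and of the reads on no gene, in the low adhesion genes was not tested.

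Subunits that form 1 receptor were compared heifer by heifer, on log2 CPM with a pseudocount of 1. ITGA4 and ITGB1 varied together: Pearson's r was 0.69 on D55 (n = 23, permutation p = 0.00026, adjusted p = 0.0011 over the 19 relations computed; Spearman's rho 0.65, permutation p = 0.0011). On D105 r was 0.91 (permutation p = 1e-05, the smallest that 100000 permutations can give; adjusted p = 0.00019; rho 0.88, permutation p = 1e-05). Without 604 and 664, the heifers farthest from the median, it was 0.85. Within the D105 set BACKUP r was 0.93 (17 heifers) and within New 0.81 (6 heifers). Members that form no receptor together reached like values, given as a description: r on D55 and D105 was 0.81 and 0.83 for ITGB1 with ITGAL, 0.69 and 0.89 for ITGA4 with ITGAL, 0.74 and 0.85 for ITGAL with SELPLG, and 0.59 and 0.81 for ITGA4 with SELPLG. All of these are levels in the same libraries, which share their cell makeup.

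ITGA4 and its other partner ITGB7 gave r = 0.22 on D55 (permutation p = 0.33, adjusted p = 0.39; rho 0.18, permutation p = 0.41). On D105 they gave r = 0.73 (permutation p = 0.00018, adjusted p = 0.0011; rho 0.60, permutation p = 0.0029) and 0.60 without 604 and 664, with 0.74 in BACKUP and 0.75 in New. The change of r between the days was not tested.

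The partners of ITGB2 followed it less closely. ITGAL and ITGB2 gave r = 0.37 on D55 (permutation p = 0.085, adjusted p = 0.12; rho 0.30, permutation p = 0.17) and 0.43 on D105 (permutation p = 0.042, adjusted p = 0.085; rho 0.53, permutation p = 0.011, adjusted p = 0.034). ITGAM and ITGB2 gave 0.39 (permutation p = 0.067, adjusted p = 0.12; rho 0.49, permutation p = 0.019, adjusted p = 0.052) and 0.48 (permutation p = 0.021, adjusted p = 0.054; rho 0.34, permutation p = 0.11), and the latter rested on heifers 633 and 637, without which r was 0.20. ITGAX and ITGB2 gave -0.12 (permutation p = 0.57, adjusted p = 0.60; rho -0.09, permutation p = 0.69) and 0.12 (permutation p = 0.60, adjusted p = 0.60; rho 0.16, permutation p = 0.48). For ITGAM with ITGB2 on D55 the groups went opposite ways, with r = 0.82 in AI, 0.79 in IVP-LOS and -0.94 in IVP-Normal. For ITGAX with ITGB2 on D55 r was -0.02 in AI, 0.45 in IVP-LOS and -0.94 in IVP-Normal. The IVP-Normal values rest on 6 heifers, and the differences between groups were not tested.

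**Figure D5:**
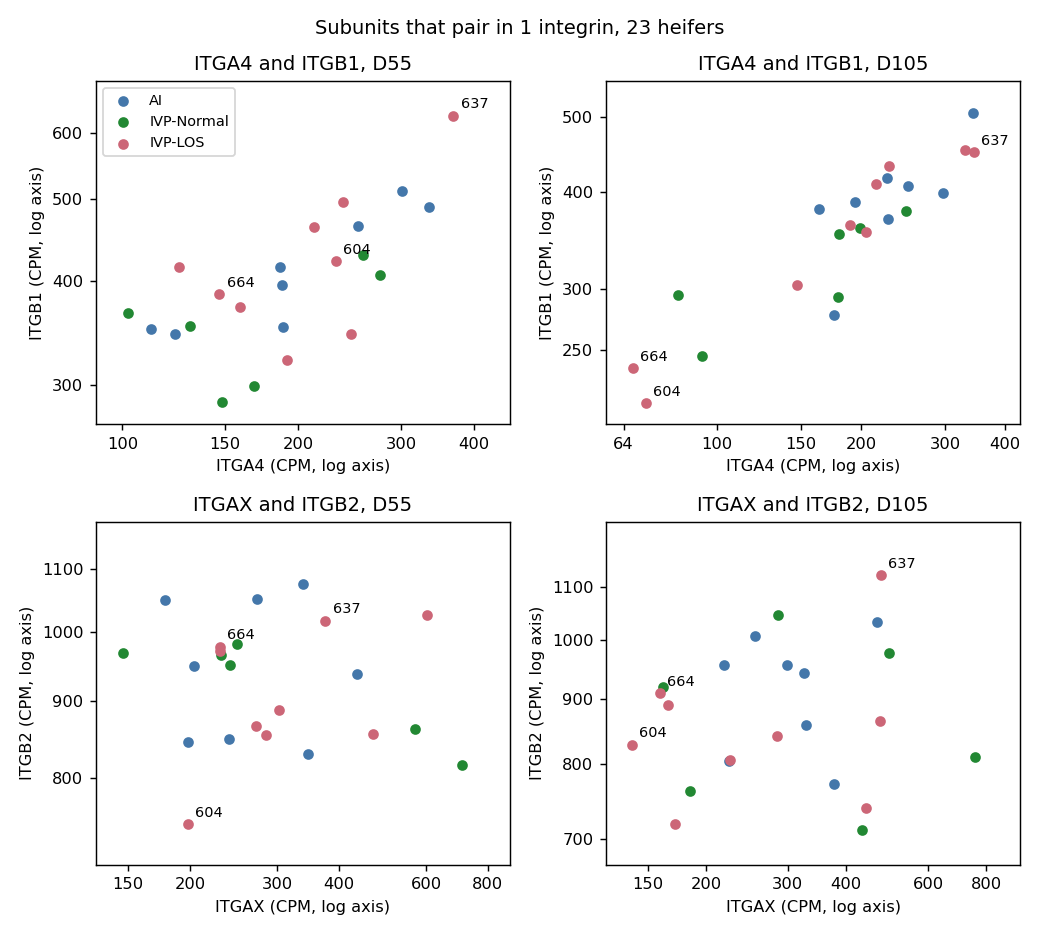
CPM of paired integrin subunits in the 23 heifers on D55 (left) and D105 (right), both axes logarithmic, coloured by group and with heifers 604, 637 and 664 numbered. ITGA4 and ITGB1 (top) line up, with r = 0.69 and 0.91, while ITGAX and ITGB2 (bottom) do not, with r = -0.12 and 0.12.

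Some of the genes kept a heifer's rank from D55 to D105. ITGAX did so most, with r = 0.77 over the 23 heifers (permutation p = 3e-05, adjusted p = 0.00029; rho 0.76, permutation p = 6e-05), and r was 0.68 without heifers 519 and 656. Heifer 519 had the highest ITGAX on both days, 710 and 757 CPM. ITGB2 gave r = 0.69 (permutation p = 0.00028, adjusted p = 0.0011; rho 0.70, permutation p = 0.00041) and 0.75 without 519 and 604. ITGB7 gave r = 0.64 (permutation p = 0.0018, adjusted p = 0.0057; rho 0.43, permutation p = 0.040, adjusted p = 0.095) and 0.57 without 519 and 647.

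The other 6 genes had r from 0.18 (ITGAM) to 0.47 (ITGAL) with no adjusted p under the threshold. The median r over all 16487 genes was 0.37, and 6 of the 9 members lay above it. Within the heifers whose D105 library is in BACKUP, r was 0.75 for ITGAX, 0.75 for ITGB2 and 0.64 for ITGB7 (17 heifers), and in the 6 others it was 0.82, 0.59 and 0.85.

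The genes whose levels followed each member most closely over the 46 libraries were named by Pearson's r of log2 CPM, as a description, since the libraries share heifers and cell makeup. For SELPLG they were PREX1 (0.94), GLIPR1 (0.92) and PIK3CG (0.92). For ITGA4 they were KDM7A (0.93), PEAK1 (0.91) and ATP7A (0.90), and for ITGB1 PTGFRN (0.88), KCNE3 (0.87) and NRP2 (0.86). ITGAL was closest to ENPP4 (0.90), RAP1GAP2 (0.88) and IL10RA (0.87), and ITGB7 to ATG9A (0.89), RFLNB (0.88) and CCDC88B (0.87).

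The myeloid subunits and ICAM1 had less close companions. ITGAM was nearest to MAN1A1 (0.85), FUT4 (0.83), which encodes a fucosyltransferase, and AP2B1 (0.82). ITGB2 was nearest to CORO1B (0.77), SLC15A3 (0.76) and PLEKHO2 (0.74), and ITGAX to LOC515333 (0.74), SLC16A1 (0.71) and KIAA1324 (0.71). For ICAM1 the highest values were 0.68 (MMP14), 0.68 (PHF2) and 0.67 (PLAGL2).

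Among 54 other genes of leukocyte adhesion, 53 were in the table and 47 were tested between the days. In AI 6 were called higher and 0 lower, 9 and 0 with the block. In IVP-Normal edgeR's quasi-likelihood test called 0 and DESeq2 2 (FYB1 and ICAM3), with 9 of 47 at an unadjusted p under 0.05 against 13.3% of all genes. With the block 5 were called higher there, namely FYB1, ICAM3, ITGA2B, ITGB5 and PTK2B, which were named after their values were seen. In IVP-LOS edgeR's quasi-likelihood test called 0 and DESeq2 2 (FYB1 and ST3GAL6), with 5 of 47 at an unadjusted p under 0.05 against 12.6% of all genes, and 1 was called higher with the block. Between groups edgeR and DESeq2 called 0 in each of the 6 comparisons, with 0 to 6 genes at an unadjusted p under 0.05. Between the days DESeq2 called 4.91% of all genes in IVP-Normal and 2.22% in IVP-LOS. The other shares of all genes called are those given above for each comparison.

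In AI heifers ICAM3, a ligand of LFA-1 on resting leukocytes, rose by 1.04 on the log2 scale (edgeR FDR = 8.5e-05). FYB1, an adaptor that links receptor signals to integrin activation, rose by 0.85 (edgeR FDR = 0.00023), and CYTIP, which dampens the LFA-1 activator CYTH1, rose by 0.45 (edgeR FDR = 0.024). The other 3 called genes, named after their values were seen, were PTK2B (0.45), PXN (0.41) and ST3GAL6 (0.24). The first 2 of these encode proteins of the adhesion contact and the last a sialyltransferase that builds selectin ligands. FYB1 was the 1 gene of the list called in IVP-LOS with the block (0.71, FDR = 0.026), and its unblocked change there was 0.75 (edgeR FDR = 0.071).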

How the data were processed

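RNA of buffy-coat leukocytes from 23 heifers on D55 and D105 was sequenced as paired 100 base reads. Per the labels and the study's methods, trimmed reads were mapped to assembly ARS-UCD1.2 with HISAT2 2.1.0, and the authors deposited raw read counts per NCBI RefSeq gene from HTSeq-count in union mode, without normalization. The strand setting is not given in the sources used here. An Ensembl count table was not used, because its identifiers could not be matched to the 9 genes. Summary lines, such as reads on no gene (23.2 to 38.0% per library), stayed out of library sizes.

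Counts were analysed in R 4.3.3 with edgeR 4.0.16 (TMM, filterByExpr with a minimum count of 10, quasi-likelihood F-test, Benjamini-Hochberg over all genes tested, FDR of at most 0.05). Only the compared groups entered a fit, except for the 3 tests of whether day changes differ, which used all 46 libraries. Standard errors are the log2 fold change divided by the square root of F. Alternatives tried were DESeq2 1.42.0, the likelihood ratio test of edgeR, upper-quartile scaling, no filter, all libraries in 1 fit, heifer as a block, libraries left out, and pseudocount 0.1 for correlations, which used 100000 two-sided permutations of heifers. The fits were tested on simulated counts. Leaving out 604 and 664 from the blocked IVP-LOS fit was added after the data were seen.

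The same animal links the days. Deviations from group means had a mean correlation of 0.53 (0.28 to 0.83) within 23 heifers and -0.02 between heifers. Each heifer is a separate animal, so p-values between groups within a day measure the spread between animals. Day tests without the block, and the tests of differing day changes without it, treated both libraries of a heifer as independent. With the block, p-values measure the spread of the changes within heifers.

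The 9 genes, the marker lists and the list of other adhesion genes were chosen with earlier results of these data known. By rule, at most 4 called genes of that list per comparison and direction with the smallest FDR were named, and the text says where others were named after their values were seen. For each member the 3 genes of most similar pattern were named. 1 gene of the list is not reported here and was left out of its counts. The reference gene table is of assembly ARS-UCD2.0, which differs from that of the counts, and its coordinates were used only to look for overlapping genes. It holds 8 of the 9 symbols (ITGAX was not found in it), and sequences were not used here.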

Additional observations from a re-analysis of the deposited data

Results flagged for a closer look

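For each gene and each group on each day (54 sets of 6 to 9 heifers), the highest and lowest heifer was compared with the rest by Dixon's gap over the range. Chance flags about 1 set in 20, but the sets share heifers and genes that vary together, so the number flagged was not compared with chance. In 6 of these sets a heifer stood apart. Heifer 637 of the IVP-LOS group was the high heifer in 4 of them. On D105 it had 881 CPM of SELPLG against 66.1 to 369 CPM in the other 8 heifers of its group, 1124 CPM of ITGB2 against 719 to 909 CPM, and 14.04 CPM of ICAM1 against 5.32 to 8.24 CPM. On D55 it had 369 CPM of ITGA4 against 124.9 to 247 CPM. The neutrophil marker sum of 637 was 12291.5 CPM on D105, the highest of the 23 heifers, and its part in these values was not tested. The other 2 sets concerned ICAM1 on D55. Heifer 546 of the AI group had 16.3 CPM against 6.62 to 9.47 CPM, and heifer 519 of the IVP-Normal group had 3.62 CPM against 7.96 to 9.91 CPM.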

How the results depend on the processing

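Between groups, every alternative left 0 of 9 genes called. Between the days, the count of called genes in AI went from 1 to 2 with heifer as a block and to 0 with all 46 libraries in 1 fit, where SELPLG kept its size (0.85) at an edgeR FDR of 0.060; in IVP-Normal it went from 0 to 2 with the block. The block changed no other call among the 9 genes. For ITGAL with ITGB2 on D55, r was 0.49 without 604 and 664 (permutation p = 0.024). Of the values for single genes, 690 kept direction and side of the threshold, 3 newly passed it, 1 no longer passed it and 26 changed sign, none of these 26 being a call. The sign changes were as follows, on the log2 scale. For the day change in AI, ICAM1 was -0.016 with the block, -0.0059 with no filter and -0.035 with upper-quartile scaling. For the day change in IVP-LOS without 604 and 664, ITGA4 was 0.11, or 0.13 with the block. In IVP-LOS against AI on D55 without 637, ICAM1 was -0.022, ITGA4 -0.13, ITGAL -0.045 and ITGB1 -0.049. In IVP-LOS against AI on D105 without 604 and 664, ITGA4 was 0.021, ITGAM 0.015, ITGAX 0.041 and ITGB1 0.016. In IVP-LOS against IVP-Normal on D55 without 604 and 664, ITGAX was 0.026 and ITGB2 0.011. In the same comparison on D105, SELPLG was -0.0086 with upper-quartile scaling and -0.43 without 637, ICAM1 -0.044 and ITGAM -0.049 without 637, and ITGB7 0.087 without 604 and 664. For the day change of IVP-LOS against that of IVP-Normal, ITGA4 was -0.060 and ITGB2 0.0039 with the block, ITGB2 0.0048 with no filter and 0.012 with upper-quartile scaling, and ITGAL 0.10 and ITGB1 0.017 without 604 and 664. The cause was not tested. Pseudocount 0.1 moved no correlation across the threshold. The Ensembl table could not be run as an alternative.

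In counts simulated for IVP-LOS against AI on D105 (15283 genes), 59% of genes changed by 1 and 25% of those changed by 0.5 on the log2 scale were called. In counts simulated for the days in AI (15248 genes) these shares were 82% and 50%, and for the days in IVP-Normal 52% and 7%. For the difference of the day changes of IVP-LOS and AI they were 62% and 19%. The 95% intervals of the members between groups reached from -1.23 to 1.04, and ICAM1, with at most 16.3 CPM, has the widest counting error of the 9 genes.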
